A study of Homo sapiens with 6 samples.

Results

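The transcriptional coactivators YAP1 and WWTR1 (also called TAZ), their DNA-binding partner TEAD1 and 7 genes downstream of them were followed through a piRNA experiment. The genes were picked by name, with earlier results of these data known. All 10 were found among the 58051 genes of the deposited expression table and among the 12912 genes that were tested. CCN1 (older name CYR61), CCN2 (older name CTGF), ANKRD1, AMOTL1, AMOTL2, AJUBA and LATS2 are known as targets or feedback regulators of the pathway, whereas YAP1, WWTR1 and TEAD1 are its own transcription machinery and are not targets in the strict sense. The 6 RNA-seq libraries are labelled as NTera-2 (NT2), a human line derived from a germ cell tumour of the testis (embryonal carcinoma). In the first group, 3 libraries came from cells that received mimics of piR-36249, a piRNA, which is a class of small RNA known mainly from germ cells. In the second group, 3 libraries came from cells that received a scramble of it. The genotype field of the mimic libraries names a knockdown, unlike their titles and treatment, so every direction below is that of the libraries titled mimic against those titled scramble. Whether a group's 3 libraries stem from separate cultures is stated nowhere in the labels, and p-values therefore measure the spread between libraries, which may be technical.

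In the Hippo pathway the kinases STK3 and STK4 activate LATS1 and LATS2, which phosphorylate YAP1 and WWTR1 and keep them out of the nucleus. When this brake is off, YAP1 and WWTR1 enter the nucleus, bind TEAD factors and raise the transcription of genes such as CCN1, CCN2 and ANKRD1, and also of LATS2 and AMOTL2, which restrain the pathway in turn. The control acts largely on the location and stability of the YAP1 and WWTR1 proteins, which RNA levels do not show.

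The sequence that TEAD factors are known to recognise best has the core GGAATG, so the promoters in RefSeq (GRCh38.p14) were searched for GGAATG and for CATTCC, its other strand. Each promoter runs from 250 bases before to 50 after a gene's start, and matches on the 2 strands cannot overlap each other. Of the 10 genes 8 had an entry, with 11 promoters in all, and 6 of these 11 held a match. Of all 35116 promoters of the same length 14.0% held one, 1.37% held at least 2 and 0.128% held at least 3. CCN2 had 3 matches, ANKRD1 had 2, and YAP1, LATS2, 1 of 2 promoters of AMOTL2 and 1 of 2 promoters of AJUBA had 1 each, while no match was found in the windows of WWTR1 and AMOTL1. CCN1 and TEAD1 had no entry. A match is a description of letters and not a bound site. The 250 bases before the start are printed for CCN2 and ANKRD1. Both hold more than 1 match, and their RNA levels differed in what they did. AMOTL2, whose difference, like that of LATS2, had the opposite sign without passing the test, is printed as well. Sequences run 5′ to 3′ on the minus strand, on which all 3 genes lie, and capitals mark the matches. The region of CCN2 is chr6:131951373-131951622, that of ANKRD1 is chr10:90921088-90921337, and that of AMOTL2 is chr3:134374448-134374697. The starts used for ANKRD1 and AMOTL2 lie within the annotated gene. Those of WWTR1 and AMOTL1, whose windows held no match, lie further inside theirs.
CCN2: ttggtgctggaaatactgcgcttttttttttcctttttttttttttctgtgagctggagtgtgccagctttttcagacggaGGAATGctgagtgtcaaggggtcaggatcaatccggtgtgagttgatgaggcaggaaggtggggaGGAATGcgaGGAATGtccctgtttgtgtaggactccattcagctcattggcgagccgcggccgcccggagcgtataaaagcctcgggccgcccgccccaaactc
ANKRD1: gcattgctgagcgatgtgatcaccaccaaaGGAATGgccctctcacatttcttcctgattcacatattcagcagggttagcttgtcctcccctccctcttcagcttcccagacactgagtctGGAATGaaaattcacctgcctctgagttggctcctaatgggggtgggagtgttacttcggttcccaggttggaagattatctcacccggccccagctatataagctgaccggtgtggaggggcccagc
AMOTL2: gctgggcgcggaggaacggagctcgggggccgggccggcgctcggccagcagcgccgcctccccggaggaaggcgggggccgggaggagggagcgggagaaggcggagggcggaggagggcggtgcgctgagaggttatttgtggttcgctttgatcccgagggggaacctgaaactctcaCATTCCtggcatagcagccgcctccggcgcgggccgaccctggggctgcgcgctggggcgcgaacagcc
In CCN2 the first bases of the matches lie at -169, -104 and -95 from the start, in ANKRD1 at -220 and -128, and in AMOTL2 at -69. The AMOTL2 match reads CATTCC and the others read GGAATG.

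Recovered depth was between 48.0 and 58.6 M reads in the mimic libraries and between 52.8 and 62.7 M in the scramble libraries. Values are FPKM, which the authors scaled to gene length and library depth, so levels can be compared between genes. Correlations of log2 values across genes were 0.994 to 0.996 within groups and 0.985 to 0.988 between them. Markers went against the label: of 12 genes known from embryonal carcinoma only DNMT3B was above 1 FPKM in every library, and L1TD1, TDGF1, SOX2, PRDM14, NANOG and SALL4 were listed at 0 in all of them. This list summed to between 5.28 and 5.54 FPKM with mimic and between 3.17 and 3.71 FPKM with scramble, and DNMT3B, which supplied most of it, rose by 0.58 on the log2 scale (limma adjusted p = 0.000367). Of 12 endothelial genes 9 were above 1 FPKM in every library, while KDR, EMCN and VWF were below 0.5 FPKM on average. The summed FPKM of this endothelial list was between 707.6 and 769.8 in the mimic libraries and between 591.7 and 634.5 in the scramble libraries. Of its 9 tested genes 7 rose and none fell (limma adjusted p under 0.05), against 18.7% higher and 16.8% lower among all tested genes. No listed blood gene exceeded 0.182 FPKM in any library. The epithelial list summed to between 303.3 and 318.7 FPKM with mimic and between 293.8 and 324.0 FPKM with scramble, nearly all of it from KRT8, which rose by 0.20 (limma adjusted p = 0.0106), and KRT18, which did not pass the test, and CDH1, ESRP1 and GRHL2 were listed at 0. The fibroblast list summed to between 6.77 and 7.31 FPKM with mimic and between 4.79 and 5.11 FPKM with scramble, most of it THY1, which rose by 0.31 (limma adjusted p = 0.00415). The part of these markers in the results below was not tested, and in bulk RNA fewer cells of a type and less RNA per cell cannot be told apart.

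Of the 10 genes 6 fell with mimic and none rose. WWTR1 fell most, followed on the log2 scale by CCN2, TEAD1, CCN1, AJUBA and YAP1. As ratios of mean FPKM, mimic over scramble, CCN2 (0.728) and TEAD1 (0.724) were nearly equal. ANKRD1, AMOTL1, AMOTL2 and LATS2 did not pass the test. Among all 12912 tested genes 35.5% passed it, 16.8% lower and 18.7% higher with mimic. The test was limma on log2(FPKM + 1), on which a difference of -1 means roughly a halving and the changes of genes with low values come out smaller, with Benjamini-Hochberg adjustment at 0.05. The median log2 difference was -0.25 over the 10 genes and 0.0025 over all tested genes. Every mimic library lay below every scramble library in 6 of the 10, which occurred in 23.2% of all tested genes, and above in 2 of the 10, against 26.0% of all tested genes, so that the groups did not overlap in 8 of the 10, against 49.2%.

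**Figure D1:**
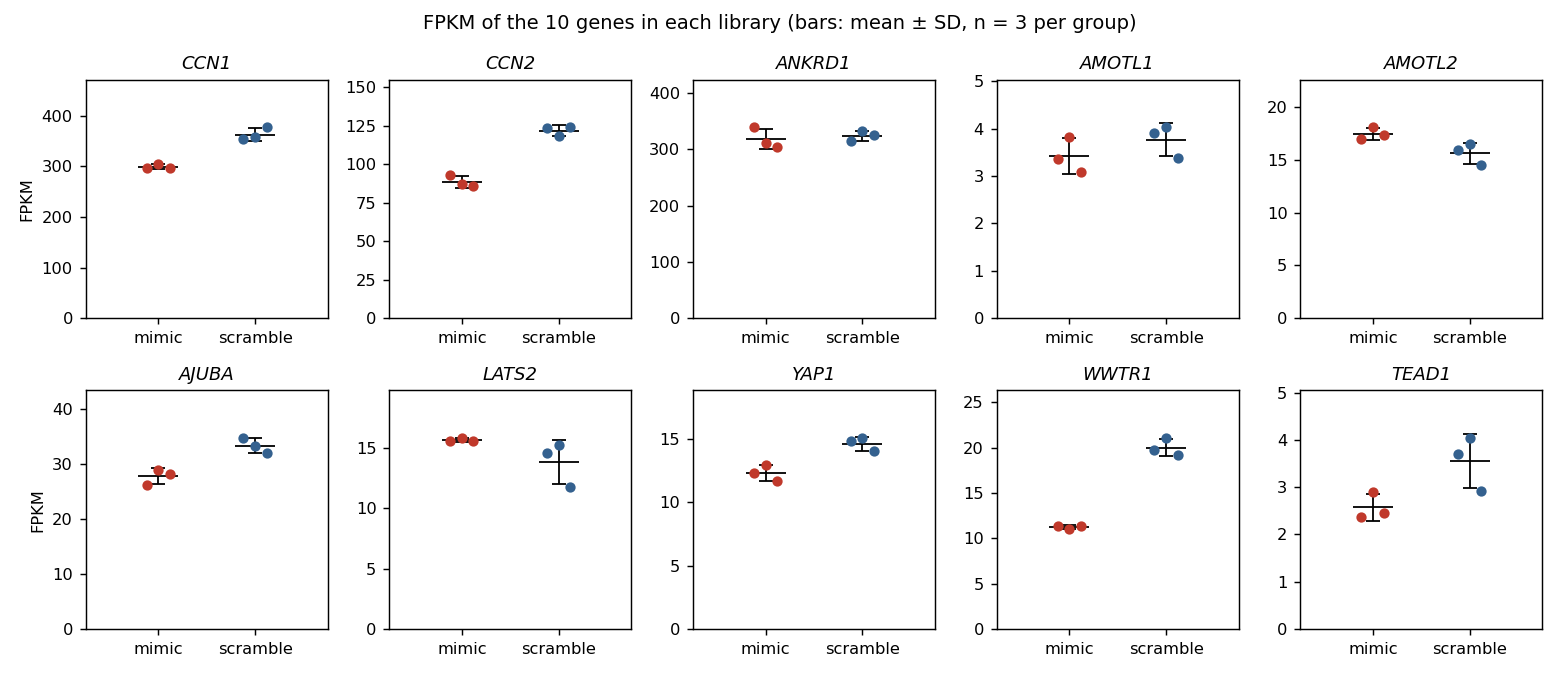
FPKM (vertical axes, starting at 0) of the 10 genes in the 3 mimic and 3 scramble libraries. Points are libraries and bars are the mean ± SD of a group. In WWTR1 the mimic libraries lie between 10.99 and 11.36 FPKM and the scramble libraries between 19.2 and 21.05 FPKM, while in ANKRD1 the groups overlap.

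**Figure D2:**
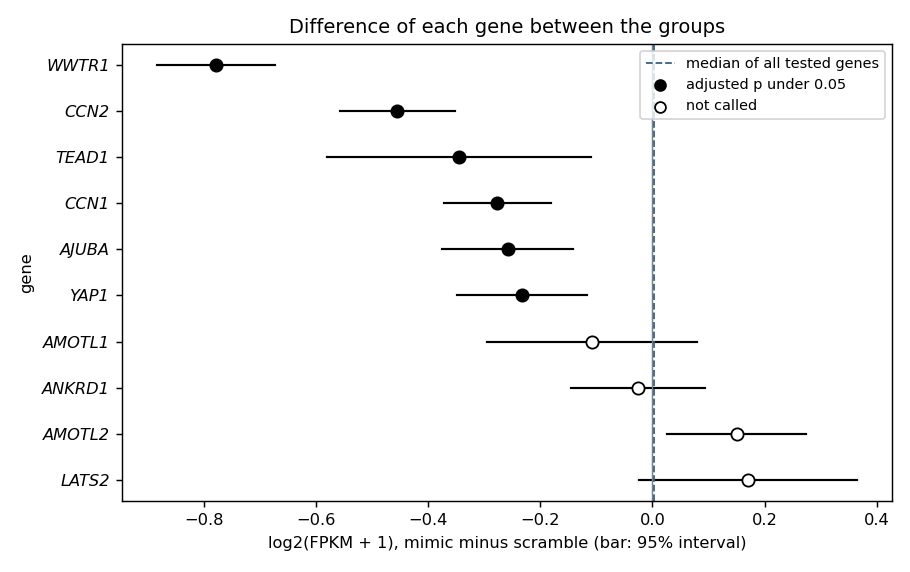
Difference in log2(FPKM + 1), mimic minus scramble, of the 10 genes (points) with 95% intervals from limma. Filled points passed the adjusted p threshold of 0.05, and all 6 of them lie below 0, from WWTR1 at -0.78 to YAP1 at -0.23.

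Among these genes the largest change was that of a coactivator. WWTR1 (ENSG00000018408, chromosome 3, 149517235 to 149736714, minus strand, GRCh38) encodes the YAP1 paralog TAZ. It measured 11.36, 10.99 and 11.35 FPKM in the mimic libraries, against 19.72, 21.05 and 19.2 FPKM in the scramble libraries. The mimic libraries lay within 0.37 FPKM of each other, and the nearest scramble library was 7.84 FPKM higher. Its mean with mimic was 0.562 of that with scramble, with a log2 difference of -0.78 (SE 0.045, limma adjusted p = 3.03e-05). An antisense gene, WWTR1-AS1, covers 9.45% of its exon bases, and reads of the 2 strands cannot be told apart without strand. WWTR1-AS1 itself had a mean of 0.571 FPKM with mimic and 0.633 FPKM with scramble.

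YAP1 (ENSG00000137693, chromosome 11, 102110461 to 102233423, plus strand), the other coactivator, fell less. It measured 12.3, 13.0 and 11.7 FPKM with mimic, against 14.8, 15.1 and 14.0 FPKM with scramble. The groups did not overlap, and the nearest libraries were 1.07 FPKM apart. The log2 difference was -0.23 (SE 0.050, limma adjusted p = 0.00939). An antisense gene listed at 0 in both groups, AP000942.2, shares 9.97% of its exon bases.

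Because the fall of WWTR1 was the larger, the order of the paralogs differed between the groups: YAP1 was the more abundant one in all 3 mimic libraries, and WWTR1 in all 3 scramble libraries. WWTR1 made up 47.7 ± 1.70% of the summed FPKM of the pair with mimic and 57.7 ± 0.586% with scramble (SD, n = 3 each). The summed level of both was 23.6 ± 0.466 FPKM with mimic and 34.6 ± 1.45 FPKM with scramble. Within each library, log2(FPKM + 1) of WWTR1 minus that of YAP1 averaged -0.12 ± 0.091 with mimic and 0.42 ± 0.033 with scramble, a difference of -0.55. In an exact two-sided permutation test p was 0.1, which is the smallest value possible with 3 libraries in each group, and a Benjamini-Hochberg adjusted p of 0.133 over the 8 within-library values tested this way. The values were chosen after the levels of the genes had been seen.

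TEAD1 (ENSG00000187079, chromosome 11, 12674591 to 12944483, plus strand) is a DNA-binding partner of both coactivators and had the lowest level of the 10 genes in both groups. It measured 2.37, 2.89 and 2.46 FPKM with mimic, against 3.70, 4.04 and 2.92 FPKM with scramble. The groups were separated by only 0.029 FPKM, since scramble replicate 3 was close to mimic replicate 2. The log2 difference was -0.34 (SE 0.101, limma adjusted p = 0.0325), with a 95% interval from -0.58 to -0.11. The call was lost without mimic replicate 1 (adjusted p = 0.095), mimic replicate 3 (0.0944), scramble replicate 1 (0.0939) or scramble replicate 2 (0.0917), on the TPM scale (0.0542) and with no filter on low values (0.123).

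None of the other TEAD genes fell. TEAD4 was the most abundant, at 62.8 ± 2.60 FPKM with mimic and 58.0 ± 2.13 FPKM with scramble (log2 difference 0.11, limma adjusted p = 0.0945), and passed the test on the TPM scale (0.0468). TEAD2 was at 8.59 ± 0.536 FPKM with mimic and 8.64 ± 0.854 FPKM with scramble. TEAD3 rose, to 4.11 ± 0.274 FPKM with mimic, against 3.30 ± 0.232 FPKM with scramble (log2 0.25, limma adjusted p = 0.0187), and lost its call without mimic replicate 3 (0.0666), without scramble replicate 2 (0.0585) and with no filter on low values (0.0609). TEAD1 made up 3.29 ± 0.319% of the summed FPKM of the TEAD genes with mimic and 4.85 ± 0.945% with scramble, and the summed level was 78.05 ± 1.95 FPKM with mimic and 73.5 ± 2.65 FPKM with scramble (exact two-sided permutation p = 0.1 for the share and 0.2 for the sum, adjusted 0.133 and 0.229). Of the VGLL genes, which compete with YAP1 and WWTR1 for TEAD factors, VGLL4 rose by 0.20 on the log2 scale, VGLL3 did not pass the test (-0.06) and VGLL1 and VGLL2 were listed at 0 in every library. The call of VGLL4 did not survive the removal of replicate 2 or 3 of either group (highest adjusted p 0.0887) or the absence of a filter on low values (0.0867). In all, 2 of the 6 tested TEAD and VGLL genes rose and 1 fell, with a median log2 difference of 0.053. Among all tested genes 18.7% rose and 16.8% fell.

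CCN1 and CCN2 encode secreted matricellular proteins that bind integrins, and both are widely used readouts of YAP1 and WWTR1 activity. CCN2 (ENSG00000118523, chromosome 6, 131948176 to 131951373, minus strand) measured 93.1, 87.1 and 85.9 FPKM with mimic, against 123.6, 118.1 and 123.9 FPKM with scramble. All mimic libraries were below all scramble libraries, and the gap between the nearest was wider than the range within either group. The mean with mimic was 0.728 of that with scramble, with a log2 difference of -0.45 (SE 0.044, limma adjusted p = 0.000262).

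CCN1 (ENSG00000142871, chromosome 1, 85580761 to 85583962, plus strand) was more abundant and fell less. It measured 296.8, 305.2 and 296.5 FPKM with mimic, against 354.2, 358.0 and 377.2 FPKM with scramble. The lowest scramble library was 49.0 FPKM above the highest mimic library. The log2 difference was -0.28 (SE 0.041, limma adjusted p = 0.00183). An opposite-strand gene with a mean of 0 FPKM with mimic and 0.0322 FPKM with scramble shares 8.34% of the exon bases of CCN2, and no annotated gene shares exon bases with CCN1. The other 4 CCN genes were below the filter on low values, CCN4 at 0 in every library. CCN3 averaged 0.166 FPKM with mimic and 0.0760 FPKM with scramble, and CCN6 averaged 0.0611 FPKM with mimic and 0.0952 FPKM with scramble.

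ANKRD1 (ENSG00000148677, chromosome 10, 90912096 to 90921276, minus strand), a nuclear and sarcomeric ankyrin repeat protein and another common readout, did not pass the test. It measured 339.0, 312.1 and 303.7 FPKM with mimic, against 314.0, 332.2 and 325.2 FPKM with scramble. The groups overlapped, and the mimic libraries held both the highest and the lowest value. The log2 difference was -0.03 (SE 0.052, limma adjusted p = 0.724), and its 95% interval from -0.15 to 0.09 does not reach the values found for CCN1 or CCN2. Its sign was positive without mimic replicate 3 (0.01) and after quantile normalization (0.00). The related ANKRD2 and ANKRD23 averaged 0.0728 and 0.0616 FPKM over all libraries.

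Within each library, CCN1 minus ANKRD1 on the log2 scale was -0.19, -0.03 and -0.03 with mimic and 0.17, 0.11 and 0.21 with scramble. ANKRD1 was therefore the more abundant of the pair in every mimic library and CCN1 in every scramble library. CCN2 minus ANKRD1 averaged -1.83 ± 0.022 with mimic and -1.40 ± 0.075 with scramble. The groups did not overlap in either pair, and exact two-sided permutation tests gave p = 0.1 for each (adjusted 0.133). In the stretches printed above, CCN2 holds 3 GGAATG and ANKRD1 holds 2. Whether the matches bear on these levels was not tested.

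**Figure D3:**
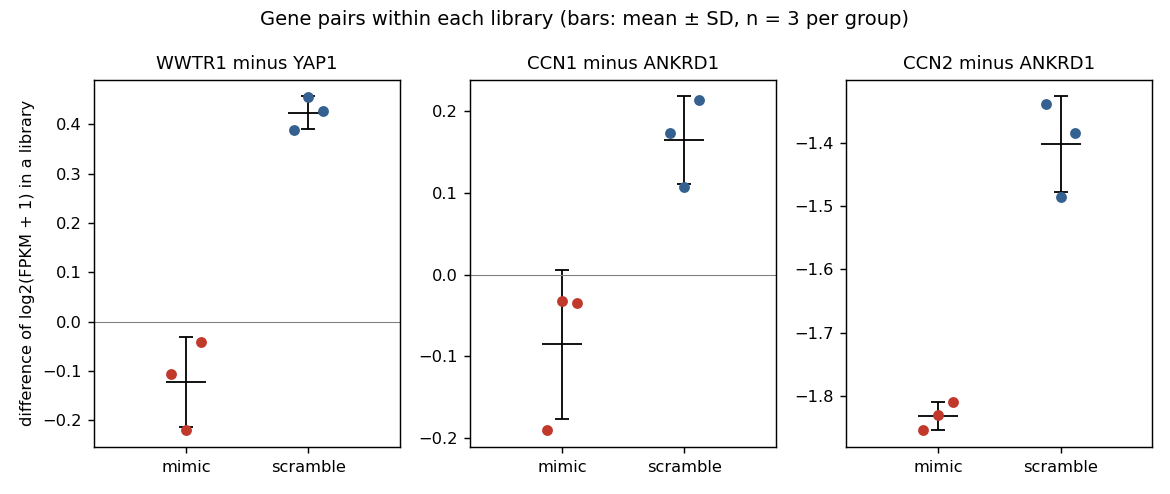
Difference of log2(FPKM + 1) between 2 genes within a library (vertical axes, not starting at 0, with a range of their own in each panel) in the 3 mimic and 3 scramble libraries. Points are libraries and bars are the mean ± SD. The groups do not overlap in any of the 3 pairs, and WWTR1 minus YAP1 lies below 0 in every mimic library and above 0 in every scramble library.

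AJUBA and the angiomotin-like genes encode scaffolds at cell junctions that act on LATS kinases or bind YAP1. AJUBA (ENSG00000129474, chromosome 14, 22971174 to 22982642, minus strand) is a LIM domain protein that restrains LATS kinases. It measured 26.09, 28.84 and 28.22 FPKM with mimic, against 34.68, 33.26 and 32.05 FPKM with scramble. The groups did not overlap, and the log2 difference was -0.26 (SE 0.050, limma adjusted p = 0.00599). Its relative LIMD1, which also restrains LATS kinases, fell by 0.35 on the log2 scale, to 9.88 ± 0.756 FPKM with mimic, against 12.9 ± 0.516 FPKM with scramble. ZYX, the most abundant gene of the LIM list, had 104.0 ± 6.70 FPKM with mimic and 92.9 ± 5.37 FPKM with scramble (log2 0.16, limma adjusted p = 0.0772), and passed the test on the TPM scale (0.0286), after quantile normalization (0.0204), with voom on recovered reads (0.0393) and without mimic replicate 2 (0.0289). WTIP, the least abundant, differed by 0.05. Of the 6 genes of this list 2 fell and none rose, against 16.8% lower and 18.7% higher among all tested genes.

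AMOTL2 (ENSG00000114019, chromosome 3, 134355874 to 134375479, minus strand) binds YAP1 and holds it outside the nucleus. It measured 16.95, 18.09 and 17.38 FPKM with mimic, against 15.93, 16.5 and 14.56 FPKM with scramble. The mimic libraries were all above the scramble libraries, by 0.45 FPKM at the nearest. The log2 difference of 0.15 (SE 0.053) missed the threshold with an adjusted p of 0.0618 in limma, and its 95% interval ran from 0.03 to 0.27. It passed without scramble replicate 2 (adjusted p = 0.0476), among genes of at least 5 FPKM (0.045), and in a voom fit of the recovered reads (0.0388).

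AMOTL1 (ENSG00000166025, chromosome 11, 94706431 to 94876753, plus strand), a relative of AMOTL2 with the same role, measured 3.356, 3.835 and 3.094 FPKM with mimic, against 3.907, 4.028 and 3.372 FPKM with scramble. The groups overlapped, and its log2 difference of -0.11 (SE 0.081, limma adjusted p = 0.335) was within the spread. It was -0.17 without mimic replicate 2 and -0.05 without mimic replicate 3, and passed the test in neither case. AMOT, the founding member of that family, was at or near 0, with a mean of 0.00188 FPKM over all libraries, so AMOTL2 was the most abundant angiomotin RNA in these cells.

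LATS2 (ENSG00000150457, chromosome 13, 20973032 to 21061547, minus strand), the kinase that phosphorylates YAP1 and WWTR1, measured 15.55, 15.81 and 15.56 FPKM with mimic, against 14.56, 15.23 and 11.79 FPKM with scramble. The mimic libraries were nearly equal and all above the scramble libraries, whose spread came from replicate 3. The log2 difference was 0.17 (SE 0.084, limma adjusted p = 0.153), and it was 0.07 without scramble replicate 3 (adjusted p = 0.28). LATS1 was at 5.56 ± 0.380 FPKM with mimic and 4.94 ± 0.434 FPKM with scramble (log2 0.15, limma adjusted p = 0.145).

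In order of level, ANKRD1, CCN1, CCN2 and AJUBA led in the mimic libraries, and CCN1, ANKRD1, CCN2 and AJUBA in the scramble libraries. WWTR1 was in place 8 with mimic and in place 5 with scramble, and AMOTL1 and TEAD1 came last in both groups. With mimic, the only neighbours whose library ranges overlapped were ANKRD1 and CCN1. With scramble, those of AMOTL2 and YAP1, of YAP1 and LATS2 and of AMOTL1 and TEAD1 overlapped. Over all libraries, CCN1 and ANKRD1 had a higher mean FPKM than 99.4% and 99.3% of tested genes, while TEAD1 stood above 36.0%. The coefficient of variation within a group was 11.0% with mimic and 9.26% with scramble for AMOTL1, and 10.9% with mimic and 16.2% with scramble for TEAD1. For LATS2 it was 0.937% with mimic and 13.2% with scramble. The lowest recovered count of any of these genes in a library was 1212 reads, for TEAD1.

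A published signature of 22 genes that respond to YAP1 and WWTR1 in tumours, as recalled here, was read next; 5 of its genes are among the 10. Of its 17 tested genes 5 fell and 1 rose, with a median log2 difference of -0.05. Of the 12 tested genes outside the 10, 3 fell and 1 rose, with a median of -0.06. Among all tested genes 16.8% fell and 18.7% rose, 35.5% in all. NT5E, the ecto-enzyme that makes adenosine from AMP, fell to 21.6 ± 0.447 FPKM with mimic, against 37.4 ± 1.72 FPKM with scramble (log2 -0.76, limma adjusted p = 3.03e-05). CRIM1, a membrane protein that binds BMPs, fell to 33.1 ± 2.05 FPKM with mimic, against 44.3 ± 3.74 FPKM with scramble (-0.41). DOCK5, an exchange factor for Rac, fell by 0.35, a call lost without mimic replicate 3 (adjusted p = 0.0558) or scramble replicate 1 (0.05) and with no filter on low values (0.0652). ARHGEF17 rose to 5.58 ± 0.354 FPKM with mimic, against 4.32 ± 0.146 FPKM with scramble (0.30, limma adjusted p = 0.00434).

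Several abundant genes of the signature did not pass the test, as ANKRD1 did not. Picked after their values were seen, the receptor kinase AXL had 113.9 ± 6.97 FPKM with mimic and 109.5 ± 1.598 FPKM with scramble, and MYOF had 85.4 ± 6.33 FPKM with mimic and 88.3 ± 7.41 FPKM with scramble. GADD45A differed by -0.02 and FJX1 by -0.07 on the log2 scale. ASAP1 (0.19, limma adjusted p = 0.0549), PTPN14 (-0.22), NUAK2 (0.12) and CCDC80 (-0.07) did not pass the test either. ASAP1 passed as higher among genes of at least 5 FPKM (0.0363), with voom on recovered reads (0.0214), with the replicate block (0.0434) and without mimic replicate 1 (0.0351). PTPN14 passed as lower without scramble replicate 3 (0.0382). The 5 untested genes, F3, TGFB2, RBMS3, FOXF2 and IGFBP3, were below the filter, TGFB2 lowest with a mean of 0.00123 FPKM.

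**Figure D4:**
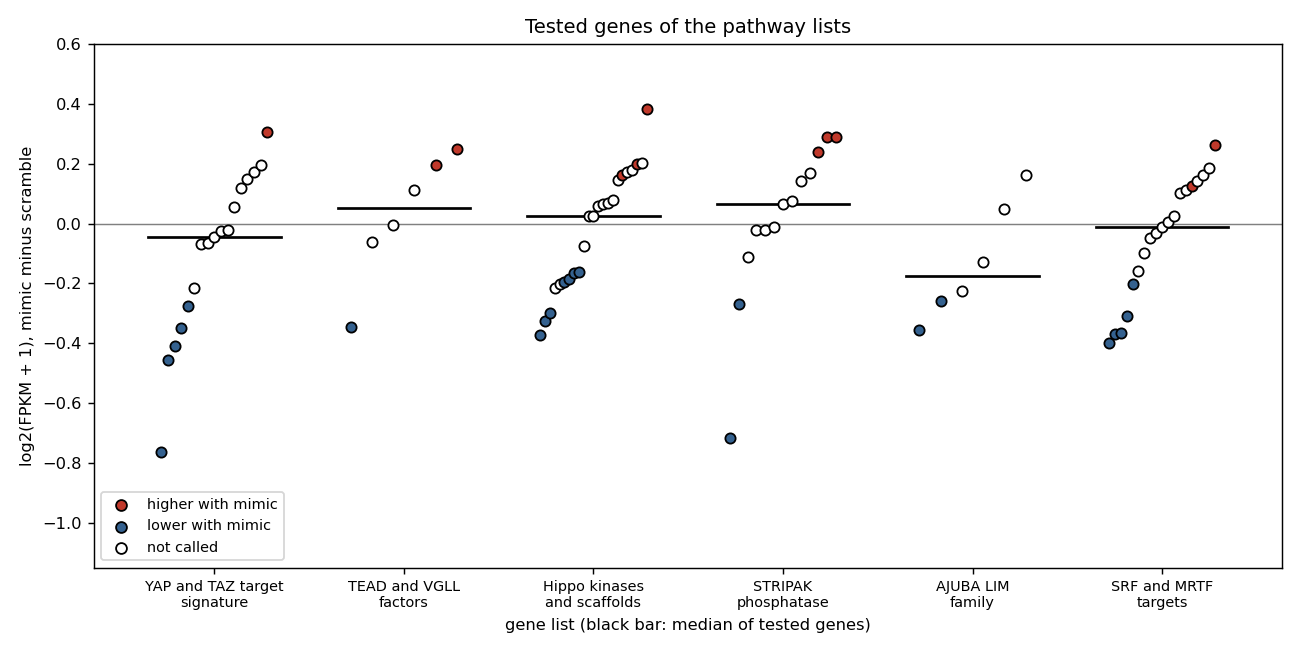
Difference in log2(FPKM + 1), mimic minus scramble (vertical axis), of each tested gene in 6 lists (horizontal axis). Red points rose, blue points fell, white points did not pass the test, and black bars are list medians, which run from -0.18 in the LIM list to 0.066 in the STRIPAK list.

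Upstream, the Hippo kinases and their scaffolds went both ways: of 23 tested genes 7 fell and 3 rose, with a median log2 difference of 0.026. The shares among all tested genes were 16.8% lower and 18.7% higher. MINK1, a kinase that can activate LATS kinases, rose to 32.8 ± 0.904 FPKM with mimic, against 24.96 ± 0.793 FPKM with scramble (log2 0.38, limma adjusted p = 0.000402). RASSF1, a scaffold of STK3 and STK4, fell by 0.37, and TAOK3 and TAOK2, which activate STK kinases, fell by 0.33 and 0.30, TAOK2 to 11.0 ± 0.049 FPKM with mimic, against 13.75 ± 0.0864 FPKM with scramble. NF2, the scaffold merlin, named after its values were seen, fell by 0.185 (limma adjusted p = 0.00778).

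Other calls of that list depended on single libraries. MAP4K4, the most abundant gene of the list, fell by 0.19 although the groups overlapped, and its call was lost when mimic replicate 1 or 3 or scramble replicate 1 or 2 was left out (highest adjusted p 0.129). WWC3 rose by 0.20, a call lost when mimic replicate 1 or 2 or scramble replicate 1 or 3 was left out (highest 0.107). MAP4K5 rose by 0.16, and leaving out mimic replicate 1 or 2 or any scramble replicate ended that call (highest 0.132). MAP4K3 and FRMD6, named after their values were seen, each fell by 0.16. MAP4K3 lost its call when any 1 library other than scramble replicate 3 was left out (highest 0.131), and FRMD6 lost it when 1 of mimic replicates 1 and 3 and scramble replicates 1 and 2 was left out (highest 0.132). With no filter on low values, none of MAP4K4 (0.14), WWC3 (0.0888), MAP4K5 (0.11), MAP4K3 (0.0941) and FRMD6 (0.11) was called. On the TPM scale MAP4K4 (0.114), MAP4K5 (0.0522), MAP4K3 (0.106) and FRMD6 (0.119) were not called. Quantile normalization ended the calls of MAP4K4 (0.0763), MAP4K5 (0.0626) and FRMD6 (0.0805), as did a fit with no variance trend (0.0655, 0.0582 and 0.0653 in the same order), and median ratio scaling ended that of MAP4K5 (0.0594). Of the core cassette, named after its values were seen, STK4 (log2 0.20), STK3 (0.07), SAV1 (0.02), MOB1A (0.08), MOB1B (0.18), LATS1 and LATS2 did not pass the test, STK4 and MOB1B passing it with voom on recovered reads (0.0346 and 0.0392).

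STRIPAK is a complex that carries the phosphatase PP2A to STK3 and STK4 and switches them off. Of its 13 genes 2 fell and 3 rose, with a median log2 difference of 0.066, against 16.8% lower and 18.7% higher among all tested genes. PPP2CB, a catalytic subunit of PP2A, fell to 10.4 ± 0.474 FPKM with mimic, against 17.8 ± 0.419 FPKM with scramble (log2 -0.72, limma adjusted p = 3.91e-05), whereas its near-identical relative PPP2CA, named after its values were seen, had 24.2 ± 1.21 FPKM with mimic and 26.25 ± 0.143 FPKM with scramble and did not pass the test (-0.11). Without mimic replicate 1 PPP2CA passed as lower (-0.15, adjusted p = 0.0351). Whether this pair shares reads that were counted unevenly was not tested. SIKE1 fell by 0.27, and FGFR1OP2 (0.29), STRN (0.29) and STRIP2 (0.24) rose. STRN lost its call without scramble replicate 1 (adjusted p = 0.0587) or 3 (0.0502) and with no filter on low values (0.0695). The scaffold PPP2R1A, the most abundant, and MOB4, the least abundant, differed by -0.02 and 0.17 without passing the test, but MOB4 differed by 0.27 and passed without mimic replicate 2 (adjusted p = 0.0144).

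CCN1, CCN2 and ANKRD1 can also be induced by the actin-regulated factor SRF and its MRTF cofactors, so that list was read beside them. Of its 19 tested genes 5 fell and 2 rose, with a median log2 difference of -0.01. The shares among all tested genes were 16.8% lower and 18.7% higher. SRF itself fell to 13.45 ± 0.163 FPKM with mimic, against 17.6 ± 0.789 FPKM with scramble (log2 -0.37, limma adjusted p = 0.000655). CALD1 (-0.40), FHL2 (-0.37) and TAGLN2 (-0.31), which bind actin or focal adhesion proteins, fell, while the actin-binding CNN2 (0.26) and TPM4 (0.13) rose, TPM4 losing its call when any 1 library was left out (adjusted p from 0.0626 to 0.0906), with no filter on low values (0.0723), after quantile normalization (0.0658) and with no variance trend (0.0643). TAGLN, another actin-binding protein, named after its values were seen, fell by 0.20, and its call too was lost when any 1 library was left out (0.0708 to 0.0965) and with no filter (0.11). ACTB, the most abundant of the list, had 1724 ± 72.2 FPKM with mimic and 1781 ± 65.5 FPKM with scramble, a log2 difference of -0.05, and MYL9 averaged 0.00112 FPKM.

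The genes whose course over the 6 libraries was most like that of CCN1, among 11129 named tested genes averaging 1 FPKM or more, were RFC5, RMDN3 and RAE1. After each gene's mean was subtracted, their log2(FPKM + 1) values differed from those of CCN1 by a root mean square of 0.012, 0.015 and 0.017. For CCN2 they were ADI1, PPIL3 and MYOSLID, at 0.016, 0.025 and 0.026. None of these 6 belongs to any list above. The authors' deposited table of 401 genes holds 0 of the 10 genes and 0 genes of the pathway lists; its smallest absolute log2 fold change was 1.0.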

How the data were processed

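RNA-seq was measured in 3 libraries of cells given piR-36249 mimics and 3 given a scramble. RNA was extracted with TRIzol and the libraries were built by a company, per the labels' protocols. The submitters' processing notes name Trimmomatic 0.39, HISAT2 2.1.0, featureCounts 2.0.1, DESeq2 1.26.0 and GRCh38; for annotation, strand and counting options, the sources used here give nothing. FPKM values for 58051 genes were deposited by the authors. The authors' deposited comparison table holds a mean of normalized counts (a signal), log2 fold changes, a test score and p-values, and was used only to see which genes it lists.

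Symbols came from a table of gene names and positions from GENCODE 29; 57447 identifiers matched. On log2(FPKM + 1), limma 3.58.1 (in R 4.3.3, variance trend on) was run for genes averaging 0.5 FPKM or more, with all 6 libraries and no covariate. A run of this fit on simulated data, with larger planted changes than many called here, is not used as support. Exact permutation tests used scipy 1.17.1. Whole reads were recovered from FPKM and exon length (95.1% to 95.3% of low values whole within 0.02 reads), which gives the depths. The 10 genes and all lists were chosen with earlier results of these data known. Named from each list were up to 4 genes with the largest rise and fall among those called, and the most and least abundant one; the lists were written from memory. Genes most like CCN1 and CCN2 were those with the smallest root mean square difference. Alternatives are given at the end.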

Additional observations from a re-analysis of the deposited data

How the results depend on the processing

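The counts over the 10 genes and the pathway lists, and the tested genes of these lists, were recomputed under 16 alternatives, other than genes averaging under 5 FPKM at the filter of 5 FPKM. The counts over the cell type markers were not recomputed. Of the 10 genes, CCN1, CCN2, AJUBA, YAP1 and WWTR1 passed the test under all 16, and ANKRD1, AMOTL1 and LATS2 under none of those run (AMOTL1 and TEAD1 fall under the filter of 5 FPKM). WWTR1 lay between -0.83 and -0.74, CCN2 between -0.49 and -0.43, CCN1 between -0.29 and -0.22, AJUBA between -0.29 and -0.22 and YAP1 between -0.27 and -0.20 on the log2 scale. Over all genes 4584 passed, between 3387 and 3998 without single libraries and between 3290 and 5037 otherwise. The median of all genes stayed between -0.0046 and 0.0237. Of the 10, none rose, but AMOTL2 did, as 1 gene, among genes of at least 5 FPKM and in the voom fit, and 0 to 1 rose and 5 to 6 fell without single libraries.

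Hippo kinases and scaffolds had 3 higher and 7 lower, but 1 and 4 with no filter, 5 higher with voom, 4 lower on the TPM scale, and 1 to 3 higher and 4 to 8 lower without single libraries. STRIPAK had 2 lower, but 1 at a filter of 5 FPKM. TEAD and VGLL factors had 2 higher and 1 lower, but 0 and 0 with no filter, 1 and 0 at 5 FPKM, 0 lower on the TPM scale, 1 higher with the replicate block, and 0 to 2 higher and 0 to 1 lower without single libraries. The target signature had 1 higher, but 2 at 5 FPKM, 3 with voom, 2 with the replicate block and 1 to 2 without single libraries. SRF and MRTF targets had 2 higher, but 1 with no filter, 1 without a variance trend, 4 with voom and 1 to 2 without single libraries. The LIM list had 0 higher, but 1 on the TPM scale, with quantile normalization, with voom and with the replicate block, and 0 to 1 without single libraries; with the replicate block 4 were lower, against 2. SIKE1, TEAD1, TEAD3 and ARHGEF17 average under 5 FPKM, so they left the counts at that filter. The 2 higher genes of the signature at 5 FPKM were AMOTL2 and ASAP1. The cause of the other shifts was not tested.

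Deviations of same-numbered libraries correlated by -0.062, 0.241 and 0.054. Mimic replicates 2 and 3 each correlated best with the scramble library of the same number, and mimic replicate 1 with scramble replicate 3 (0.23). Whether libraries of the same number belong together was not tested. With the replicate block 4609 genes passed, STK4 (adjusted p = 0.0332), ZYX (0.015), LPP (0.0286) and TRIP6 (0.0277) among them, and VGLL4 (0.0543), MAP4K5 (0.0649), MAP4K3 (0.0533) and TAGLN (0.0548) did not. The 3 libraries per group limit the precision, and at these depths 10 reads on 1 kb are worth 0.159 to 0.208 FPKM.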
